A study of Mus musculus with 2 samples.

Results

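The genes described here are 7 of the 35208 gene rows of the read table: the TAM receptors Mertk, Axl and Tyro3, the bridging ligands Gas6, Pros1 and Mfge8, and the scavenger receptor Stab1. They were listed by name and not by a rule on measured values, although earlier results of these data were known at the time. TAM receptors are receptor tyrosine kinases through which phagocytes bind and engulf apoptotic cells, a process called efferocytosis, and through which inflammatory signalling is damped. They do not bind the dying cell directly. Gas6 and Pros1 (protein S) carry a vitamin K-dependent domain that binds phosphatidylserine on the apoptotic cell and a second domain that binds the receptor, while Mfge8 joins phosphatidylserine to integrins. Stab1 (stabilin-1) binds phosphatidylserine itself, and is known from lymphatic and sinusoidal endothelium and from tissue macrophages. The question addressed was which cells of the inflamed skin hold the transcripts of the bridging ligands and of their receptors.

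The cells came from the ear skin of male BALB/c mice of 7 to 12 weeks with IgE-mediated chronic allergic inflammation (IgE-CAI). All 4 groups were sensitized with 300 µg of anti-TNP IgE given intravenously and were challenged on the next day with 10 µg of TNP-OVA in the ear skin. The groups were wild-type (WT) mice on day 3, WT mice on day 5, Ccr2-/- mice on day 3 and Ccr2-/- mice on day 5 after the challenge. Ccr2 is the chemokine receptor through which classical monocytes leave the bone marrow. The Ccr2-/- mice (allele Ccr2tm1Mae) lack it in all cells and from birth. Each group was 1 pool of cells, marked with its own hashtag antibody, and the number of mice in a pool is not given in the sources used here. Skin without inflammation was not analysed here.

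Of 8953 barcodes, 7623 were assigned to 1 pool by their hashtags, and 7118 of these were kept after limits on mitochondrial reads and on the number of genes. The WT pools held 1543 cells on day 3 and 1037 on day 5, and the Ccr2-/- pools held 2191 and 2347, with medians of 18632 to 48232 reads per cell. Cells were clustered without the genes described here, and clusters were named from marker genes, so a name such as fibroblast-like rests on transcripts alone. In each of the 16 named classes all markers were higher than in the remaining cells, but the same markers gave the names, so this is no independent check. The classes differed in size and depth. Fibroblast-like cells numbered 324 and 263 in WT and 713 and 564 in Ccr2-/- skin on days 3 and 5, and monocyte-macrophage-like cells (Mo-Mac-like) numbered 349, 398, 114 and 78. The median depth was 118289 reads in fibroblast-like cells, 57037 in Mo-Mac-like cells and 21613.5 in NK cell-like cells. In Mo-Mac-like cells the targeted gene Ccr2 stood at 729.8 and 663 counts per 1000000 reads (CPM) in WT and at 60.7 and 24.4 CPM in Ccr2-/- cells. A Ccr2 read was left in 21.1% and 28.2% of these Ccr2-/- cells. In DC-like cells Ccr2 was at 1398 and 922 CPM in WT and at 173 and 138 CPM in Ccr2-/- cells. The source of the reads left in Ccr2-/- cells was not tested. These numbers describe the cells recovered after enzyme digestion and a density gradient, and not the abundance of the cells in the tissue.

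All of the genes are annotated as protein-coding, and their positions are given on GRCm38. Gas6 lies at chr8:13465374-13494490, Pros1 at chr16:62854307-62929346 and Mfge8 at chr7:79133768-79149060. Mertk lies at chr2:128698956-128802894, Tyro3 at chr2:119797733-119818104, Axl at chr7:25757273-25788705 and Stab1 at chr14:31139013-31168641. The promoters of Gas6, which was read in stromal and Mo-Mac-like cells, and of Stab1, which was read in Mo-Mac-like and lymphatic endothelial-like cells, are shown because the account of stroma and macrophages below turns on them. Both are the 250 bases before the RefSeq start on the gene's own strand, from the GRCm38.p6 table, written 5′ to 3′ at chr8:13494536-13494785 (minus strand) and chr14:31168642-31168891 (minus strand). Capitals mark matches on either strand to GGGCGG (GC box) and GAGGAA (a PU.1-type core).
Gas6: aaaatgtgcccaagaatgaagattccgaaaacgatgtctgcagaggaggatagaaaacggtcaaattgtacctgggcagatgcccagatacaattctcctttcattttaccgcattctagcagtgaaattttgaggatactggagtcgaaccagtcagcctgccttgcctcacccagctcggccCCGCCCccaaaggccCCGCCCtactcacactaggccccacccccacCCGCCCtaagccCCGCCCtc
Stab1: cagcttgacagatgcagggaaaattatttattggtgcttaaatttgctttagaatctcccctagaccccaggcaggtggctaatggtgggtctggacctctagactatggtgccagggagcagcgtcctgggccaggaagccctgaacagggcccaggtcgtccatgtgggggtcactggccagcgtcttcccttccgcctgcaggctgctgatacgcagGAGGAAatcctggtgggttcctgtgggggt

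The Gas6 window held 4 GC boxes, between 8 and 66 bases before the start, and no PU.1-type core. The Stab1 window held no GC box and 1 PU.1-type core, 30 bases before the start. Of the 32851 windows of the same length in the table, 32.7% held a GC box and 23.3% held a PU.1-type core. A GC box was found for 6 of the 7 genes, all but Stab1. A PU.1-type core was found not only for Stab1 but also for Axl and Mfge8, 130 and 220 bases before the start. TATAAA and TGANTCA (an AP-1-type element) were searched as well, and they occur in 12.4% and 6.75% of all windows, with none in either window shown. The GC content was 54.8% for Gas6 and 57.2% for Stab1, beside a median of 52.4% over all windows. A match is a description of the letters and not a binding site.

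Gas6, the high-affinity ligand of the TAM receptors, was read in stromal cells and in Mo-Mac-like cells. In fibroblast-like cells Gas6 stood at 601 CPM in WT day 3, 389.8 in WT day 5, 361 in Ccr2-/- day 3 and 320.3 in Ccr2-/- day 5. In perichondrial-like cells, which carry the markers of the cartilage surface of the ear, the levels were 567, 380.4, 601 and 539 CPM. In Mo-Mac-like cells they were 201, 424, 364 and 465 CPM, lowest in WT day 3. The ranges of these 3 classes over the 4 pools overlapped. Skeletal muscle-like cells, of which there were 42, had 371 CPM over all pools. Among the larger classes, lymphatic endothelial-like cells had 67.9 to 122 CPM, which lay under every Mo-Mac-like value, and blood endothelial-like cells had 45.2 to 115 CPM. This gap depended on the class definition, since with each cell gated by its own markers the mean over pools was 263 CPM in lymphatic endothelial-like cells, in place of 89.1, and 349 CPM in Mo-Mac-like cells. After each cell was thinned to 10000 reads, a Gas6 read was found in 62.8% of fibroblast-like and 59.2% of Mo-Mac-like cells. In NK cell-like cells, which should lack the gene, the share was 6.1%. Without thinning the shares were 85.5%, 71.5% and 12.7%.

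**Figure D1:**
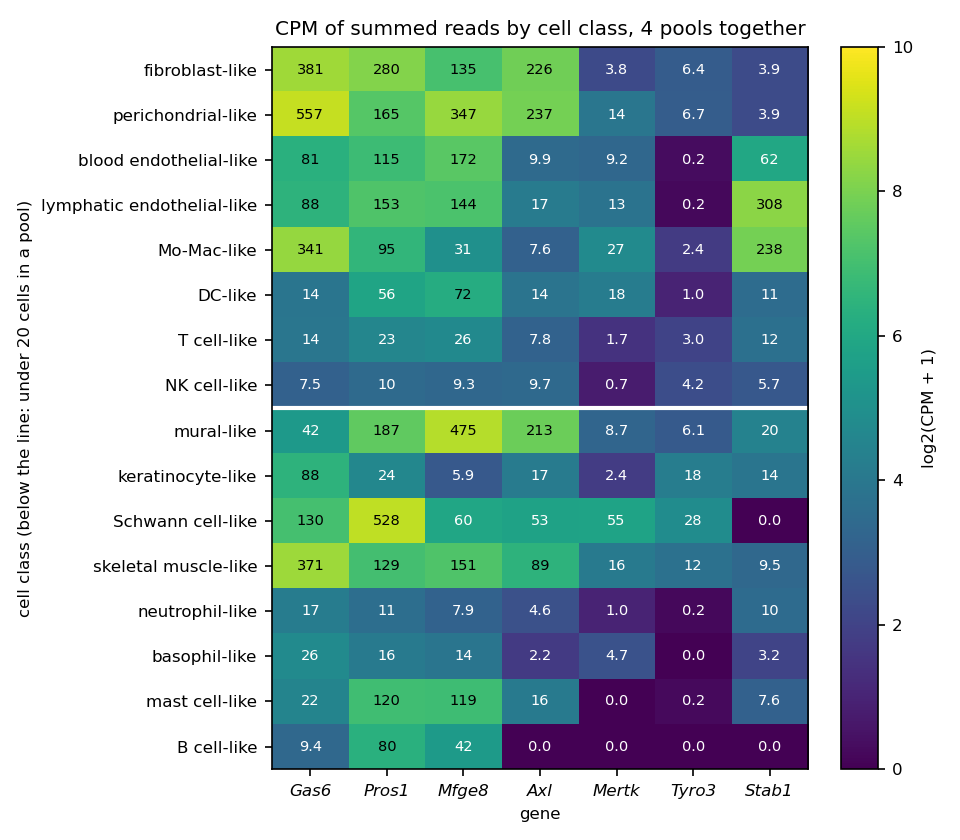
Heat map of the level of each of the 7 genes (columns) in the named cell classes (rows), with the reads of the 4 pools summed; the number in a cell is CPM and the color is log2(CPM + 1), and classes below the white line had under 20 cells in at least 1 pool. Gas6 is high in fibroblast-like, perichondrial-like and Mo-Mac-like cells, Axl in fibroblast-like, perichondrial-like and mural-like cells, and Stab1 in lymphatic endothelial-like and Mo-Mac-like cells.

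Counted over all reads of a pool, most Gas6 came from fibroblast-like cells. They held 70.5% of the Gas6 reads in WT day 3, 47.3% in WT day 5, 78.6% in Ccr2-/- day 3 and 75.7% in Ccr2-/- day 5, a mean of 68.1%. Mo-Mac-like cells held 15.2%, 45.4%, 7.4% and 8.0% in the same order. The WT day 5 pool therefore stood apart, with nearly equal parts in both classes. These shares count reads, and fibroblast-like cells were deeper. With each cell given the same weight, fibroblast-like cells held 52.6%, 30.6%, 60.2% and 51.7%, and Mo-Mac-like cells held 18.5%, 50.1%, 7.7% and 8.6%. The order of the 2 classes in WT day 5 thus turned with the weighting, and in the other 3 pools it did not. Named stromal and epithelial classes together held 82.8%, 51.4%, 91.0% and 89.9% of the Gas6 reads.

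Pros1, which circulates as an anticoagulant cofactor and is a ligand of Mertk and Tyro3, was read mostly in stromal cells. Its level in fibroblast-like cells was 301 and 242 CPM in the WT pools and 273 and 293 CPM in the Ccr2-/- pools. Lymphatic endothelial-like cells had 209 and 228 CPM in the WT pools and 127 and 122 CPM in the Ccr2-/- pools, all below every fibroblast-like value. Mo-Mac-like cells had 67.6, 89.8, 150.2 and 117 CPM, higher in both Ccr2-/- pools than in both WT pools. Fibroblast-like cells held 71.6%, 67.0%, 84.7% and 86.6% of the Pros1 reads, and Mo-Mac-like cells held 10.4%, 21.9%, 4.4% and 2.5%. The highest level, 528 CPM over all pools, was in Schwann cell-like cells, which were only 24 cells and held 0.4% of the reads. Mast cell-like cells had 119.8 CPM over all pools, with a Pros1 read in 35.9% of the thinned cells.

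Mfge8, a glycoprotein of milk fat globules that joins apoptotic cells to integrins, was spread over more stromal classes. Fibroblast-like cells had 151 and 176 CPM in the WT pools of days 3 and 5 and 118 and 137 CPM in the Ccr2-/- pools. Perichondrial-like cells had 394, 445, 333 and 317 CPM, and mural-like cells had 394, 370.2, 360.4 and 745 CPM, from 6 to 32 cells a pool. Blood endothelial-like cells had 149, 133, 167 and 208 CPM, all below every perichondrial-like value. Because fibroblast-like cells were many, they still held 54.7%, 64.1%, 69.9% and 67.5% of the Mfge8 reads, beside 19.1%, 9.6%, 16.3% and 14.2% in perichondrial-like cells. In WT day 5 Mo-Mac-like cells came second, with 12.8%. In Mo-Mac-like cells the level of Mfge8 was 19.9, 39.8, 13.6 and 64.0 CPM, and 1 cell held 61.4% of the reads behind the last value. In DC-like cells it ranged from 18.5 to 226 CPM, but 1 cell held 75.8% of the reads of Ccr2-/- day 3 and 1 cell held 50.6% of those of Ccr2-/- day 5. Those values describe single cells more than the class.

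**Figure D2:**
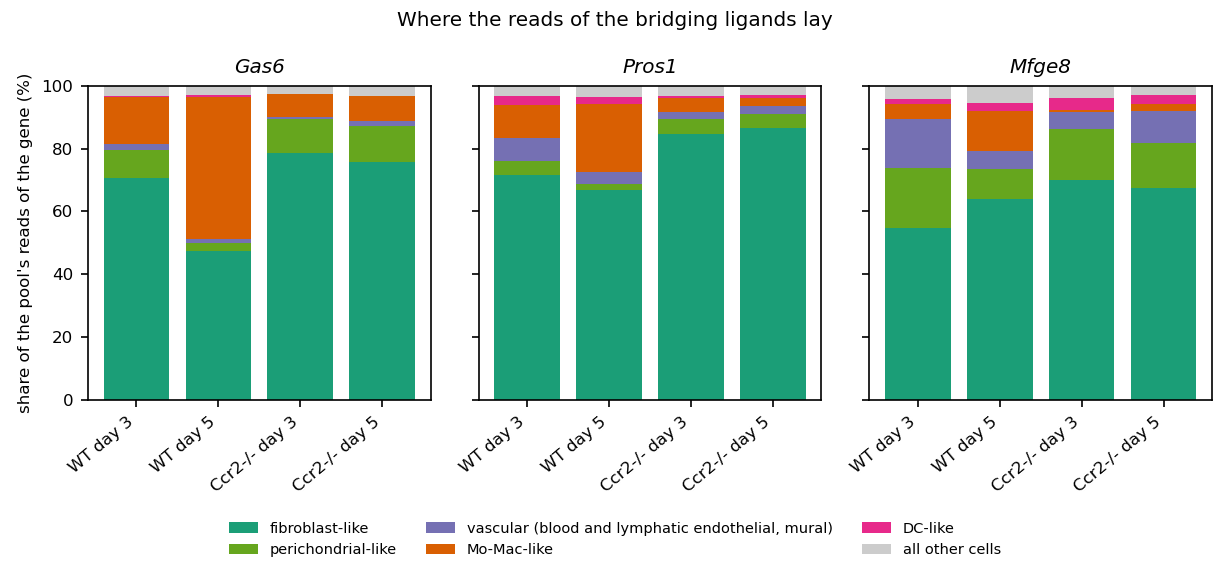
Share of all Gas6, Pros1 and Mfge8 reads of a pool (percent) that lies in fibroblast-like, perichondrial-like, vascular (blood and lymphatic endothelial-like and mural-like), Mo-Mac-like, DC-like and all other cells, as stacked bars for the 4 pools. Fibroblast-like cells hold the majority of the reads of each ligand in each pool except for Gas6 in WT day 5, where they hold 47.3% and Mo-Mac-like cells 45.4%.

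Free RNA of abundant cells can give reads in cells that do not express a gene. For each pool, the level that such carry-over would give was set as the fibroblast-like level of the gene times the ratio of the collagen gene Col1a1 between the class and fibroblast-like cells. In NK cell-like cells Col1a1 was at 1.31 to 2.34% of its fibroblast-like level. For Gas6 in Mo-Mac-like cells the carry-over level was 6.16 to 18.8 CPM, and the measured level was 10.7 to 75.5 times higher. For Pros1 the measured level was 7.20 to 20.7 times the carry-over level and for Mfge8 3.01 to 24.3 times, the upper value being that of Ccr2-/- day 5, where 1 cell held 61.4% of the reads. Axl behaved otherwise. Its level in Mo-Mac-like cells was 8.0, 6.0, 10.4 and 7.4 CPM, which was at most 1.85 times the carry-over level, and NK cell-like cells had 9.7 CPM over all pools. In DC-like cells the ratio for Gas6 was 0.80 to 6.33. Gas6 in DC-like cells (5.6 to 27.3 CPM) and Axl in Mo-Mac-like cells therefore did not stand clear of this background in all 4 pools. With each cell gated by its own markers, however, the mean Gas6 level of DC-like cells was 71.8 CPM in place of 13.4.

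Axl, the TAM receptor that binds Gas6 but not Pros1, was read mostly in stromal cells. Fibroblast-like cells had 258 and 321 CPM in the WT pools and 208 CPM in each of the Ccr2-/- pools. Perichondrial-like cells had 238, 308, 247 and 211 CPM and mural-like cells had 168, 379.6, 180.2 and 256 CPM, and these ranges overlapped with that of fibroblast-like cells. Among the other named classes with at least 20 cells in a pool, the highest value was 101.6 CPM, in the 20 skeletal muscle-like cells of Ccr2-/- day 3. With each cell gated by its own markers, however, the mean Axl level of DC-like cells was 73.9 CPM in place of 12.6. Fibroblast-like cells held 80.1%, 88.1%, 88.2% and 88.2% of the Axl reads. Of 1862 thinned fibroblast-like cells, 875 (47.0%) had reads of both Gas6 and Axl, where 62.8% had a Gas6 read and 72.7% had an Axl read.

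Mertk, the TAM receptor best known from macrophages, was low in every class, with at most 55.0 CPM over all pools, in Schwann cell-like cells. In Mo-Mac-like cells it stood at 10.8 CPM in WT day 3 (247 reads), 45.7 in WT day 5 (1152 reads), 15.4 in Ccr2-/- day 3 (164 reads) and 26.1 in Ccr2-/- day 5 (184 reads). Mo-Mac-like cells held 32.0%, 75.8%, 18.8% and 23.0% of the Mertk reads. DC-like cells had 11.9, 3.3, 48.2 and 22.8 CPM, and perichondrial-like cells had 22.8, 28.9, 11.2 and 10.1 CPM, so that the classes next to each other in the order of Mertk levels all overlapped. Fibroblast-like cells had only 3.0 to 7.5 CPM. NK cell-like cells had 8 reads, all of them in 1 cell. In Mo-Mac-like cells the 94 cells with most Mertk reads held 79.6% of them, and in DC-like cells the first 44 of 435 cells held all 396. With each cell gated by its own markers, the mean Mertk level of DC-like cells was 9.03 CPM in place of 21.6. Of 929 thinned Mo-Mac-like cells, 81 (8.7%) had reads of both Gas6 and Mertk and 7 had reads of both Mertk and Axl. In WT day 5 the first of these counts was 58 of 393 cells (14.8%).

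Tyro3, the third TAM receptor, was near the limit of detection. The 24 Schwann cell-like cells had 28.3 CPM over all pools. In the 42 skeletal muscle-like cells the level ranged from 0 to 65.6 CPM, with a mean over pools of 16.4 CPM, from 17 reads. Apart from these 2 small classes, the mean over pools was highest in keratinocyte-like cells, at 15.5 CPM. Their levels were 23.0, 13.3, 7.0 and 18.7 CPM, and in WT day 5 a single cell held all 10 reads. Fibroblast-like cells had 4.8, 6.7, 6.2 and 7.2 CPM and held 49.3 to 77.7% of the reads. In Mo-Mac-like cells Tyro3 was at 0.6 to 6.7 CPM, with 13 to 71 reads a pool.

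Stab1 divided between lymphatic endothelium and macrophages. Lymphatic endothelial-like cells had 355 and 318 CPM in the WT pools and 262 and 321 CPM in the Ccr2-/- pools. Mo-Mac-like cells had 149.6, 271, 331 and 269 CPM, a range that overlapped with the former and lay above that of blood endothelial-like cells (97.3, 53.1, 32.8 and 57.0 CPM). By number, Mo-Mac-like cells held 74.1%, 89.0%, 72.0% and 53.3% of the reads. Fibroblast-like cells had at most 4.4 CPM, below the 5.7 CPM of NK cell-like cells over all pools. Set against the macrophage gene Lyz2 as a tracer, Stab1 in lymphatic endothelial-like cells was 6.80 to 499 times the carry-over level. In the WT day 5 pool, the 31 blood endothelial-like cells had Lyz2 at 52.1% of its Mo-Mac-like level, and the part of Mo-Mac-like RNA in their Stab1 value was not tested.

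**Figure D3:**
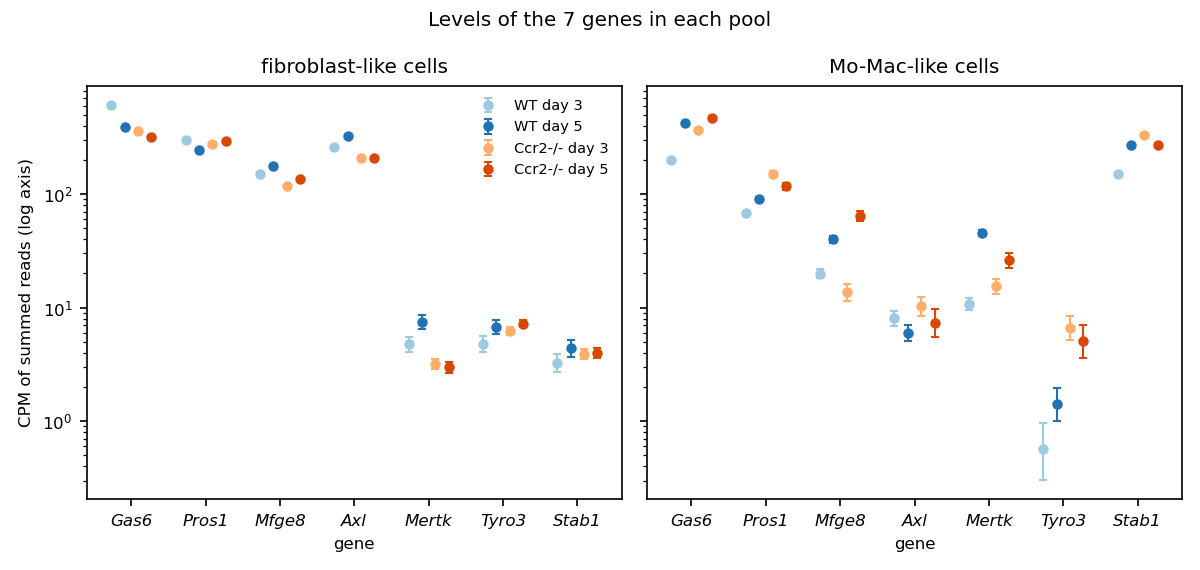
Levels (CPM of summed reads, log axis, bars of 95% Poisson intervals for counting error only) of the 7 genes in fibroblast-like and Mo-Mac-like cells, 1 point per pool. In Mo-Mac-like cells Mertk is highest in WT day 5 at 45.7 CPM and Gas6 is lowest in WT day 3 at 201 CPM.

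Mo-Mac-like cells were clustered again. The cells named resident macrophage-like, from the list Lyve1, Selenop, Folr2, Cbr2 and F13a1, held most of the Gas6 reads, although not all clusters under this name had high Lyve1. Their Gas6 level was 558 CPM in WT day 3, 519 in WT day 5, 549.6 in Ccr2-/- day 3 and 675 in Ccr2-/- day 5, and a Gas6 read was found in 88.4% of the thinned cells. The other named subsets lay lower over all pools, with 242 CPM in monocyte-derived DC-like cells, 129 in monocyte-like cells, 117 in late classical monocyte-derived macrophage-like cells (late CMDM-like) and 48.9 in early CMDM-like cells. A further 228 Mo-Mac-like cells, 125 of them from WT day 3 (35.8% of that pool's Mo-Mac-like cells), lay in clusters that stayed unnamed. One of these, with 98 cells, had 271 CPM of Gas6. The other, with 130 cells of which 98 were from WT day 3, had 163 CPM and was led by genes that include the fibroblast genes Dpt and Lum, and its part in the Mo-Mac-like levels was not tested. Resident macrophage-like cells held 51.0%, 72.0%, 97.2% and 96.6% of the Gas6 reads of Mo-Mac-like cells. They made up 63 of 349, 200 of 398, 61 of 114 and 41 of 78 Mo-Mac-like cells, which is 18.1%, 50.3%, 53.5% and 52.6%. The pool with the lowest Gas6 level among Mo-Mac-like cells was thus also the pool with the smallest share of resident macrophage-like cells. The largest cluster under the resident name, led by Rnase6, held 140 of the 200 such cells of WT day 5, and 2 and 6 such cells of the Ccr2-/- pools. It had little Lyve1 and read Ccr2, as given below.

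Stab1 was also high in resident macrophage-like cells, with 470.4, 353, 476 and 367 CPM, although the 11 late CMDM-like cells of WT day 3 had 439.6 CPM. Pros1 stood at 162, 111, 222 and 165 CPM in resident macrophage-like cells. Mertk had another order. Resident macrophage-like cells had 23.6, 47.9, 20.3 and 33.5 CPM of Mertk, while late CMDM-like cells had 41.5 CPM in WT day 3 and 75.1 CPM in WT day 5, from 11 and 18 cells. Early CMDM-like cells had 4.8 CPM over all pools. The resident name covered 3 clusters that differed. The cluster led by Cd209b (148 cells) had 753 CPM of Gas6 and 651 of Stab1. The cluster led by Rnase6 (166 cells, 140 of them from WT day 5) had 471 CPM of Gas6 and 282 of Stab1. Ccr2 was read in 66.9% of its cells, at 531 CPM, beside 75.6 CPM in the Cd209b-led cluster and 48.0 CPM in the Cyp26b1-led cluster. Lyve1 stood at 20.2 CPM in it, beside 345 and 396 CPM in those clusters. The name resident thus rests on the marker list as a whole and says nothing on the origin of its cells. The paper describes its resident-like macrophages as low in Ccr2. The third cluster (51 cells, 32 and 15 of them from the Ccr2-/- pools) was led by Cyp26b1 and by genes that include the cell cycle genes Ube2c, Cdk1 and Top2a, and had 505 CPM of Gas6.

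**Figure D4:**
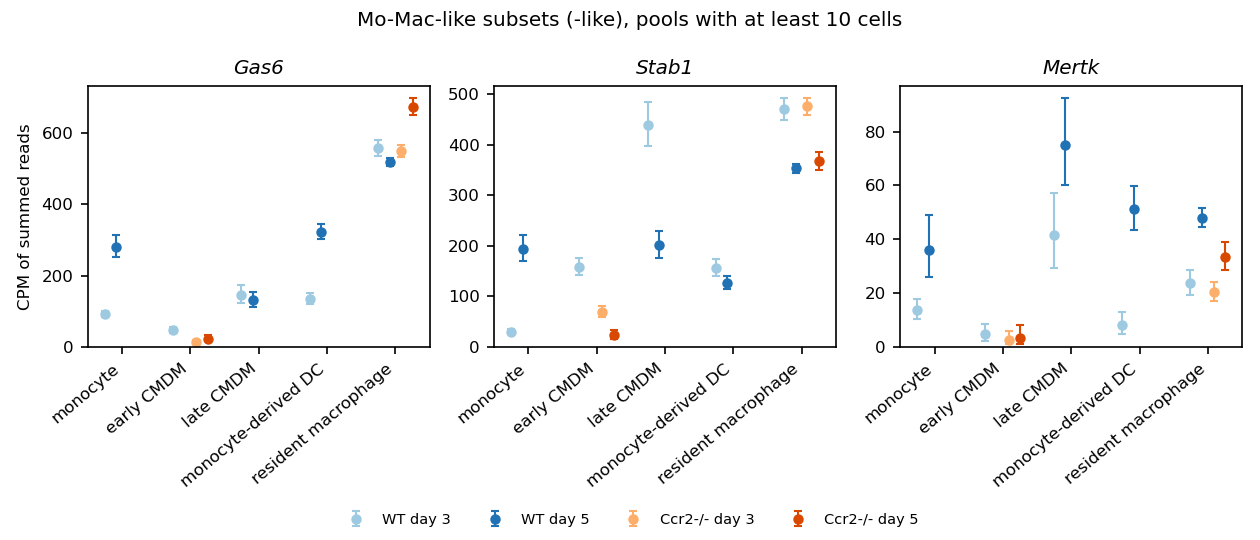
Levels (CPM of summed reads, bars of 95% Poisson intervals for counting error only) of Gas6, Stab1 and Mertk in the named subsets of Mo-Mac-like cells, 1 point for each pool with at least 10 cells of the subset. Gas6 is highest in resident macrophage-like cells, between 519 and 675 CPM in all 4 pools, and Mertk is highest in late CMDM-like cells of WT day 5 at 75.1 CPM. The resident name includes a cluster of 166 cells with little Lyve1 that read Ccr2.

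Fibroblast-like cells fell into 3 clusters, and the ligands differed among them. Resting fibroblast-like cells, named from Scara5, Pi16, Dpp4 and Cd55, had the highest Gas6 level in each pool, at 762, 471, 792 and 622 CPM. Inflammatory fibroblast-like cells, named from Saa3, Lcn2, Hp and Cxcl5, had 661, 271, 405 and 419 CPM, and cycling fibroblast-like cells had 286, 276, 126 and 146 CPM. Axl had the same leading cluster, with 359, 403, 325 and 444 CPM in resting, 172 to 227 CPM in inflammatory and 165 to 181 CPM in cycling fibroblast-like cells. Pros1 had another order. It was higher in inflammatory fibroblast-like cells, at 393, 346, 293 and 342 CPM, than in resting ones, at 239, 209, 255 and 245 CPM, in every pool. Mfge8 was highest in resting fibroblast-like cells, at 200.2, 216, 188 and 170.5 CPM. Resting fibroblast-like cells were 66.4% and 79.1% of the fibroblast-like cells of the WT pools and 31.3% and 31.2% of those of the Ccr2-/- pools.

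**Figure D5:**
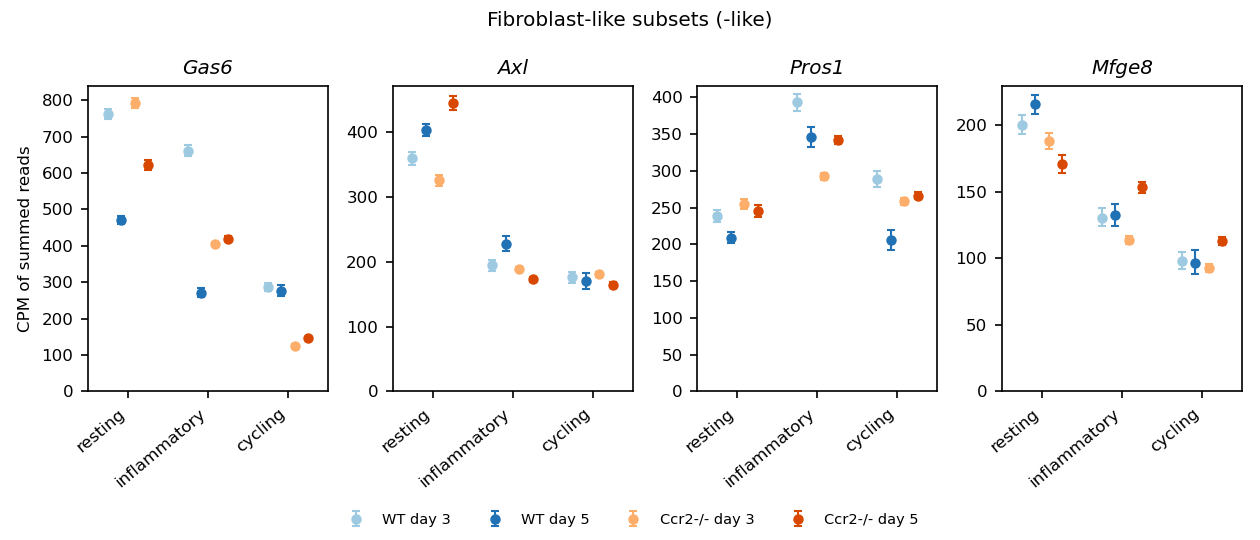
Levels (CPM of summed reads, bars of 95% Poisson intervals for counting error only) of Gas6, Axl, Pros1 and Mfge8 in resting, inflammatory and cycling fibroblast-like cells, 1 point per pool. Gas6, Axl and Mfge8 are highest in resting fibroblast-like cells in each pool, and Pros1 is highest in inflammatory ones.

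The genotypes were compared within each day. With 1 pool per genotype and day there was no test, and an exact permutation of 2 pools against 2 cannot go below p = 0.33. A gene was counted when it differed by at least 2-fold in the same direction on both days, with at least 10 CPM in 1 of the pools of each day. In fibroblast-like cells, 50 of 9184 genes were counted as higher in Ccr2-/- cells (0.544%) and 128 as lower (1.39%). Of the 7 genes 4 reached the minimum, and none of them was counted. Gas6 in Ccr2-/- fibroblast-like cells was 0.601 times the WT level on day 3 and 0.822 times on day 5. The 95% interval on day 3 was 0.591 to 0.611, for counting error of reads only, and can be too narrow. Axl was 0.808 and 0.646 times, and Mfge8 0.782 and 0.779 times. Pros1 was 0.909 and 1.21 times.

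The clusters of the class differed in these ratios. Within resting fibroblast-like cells, where 20 of 8994 genes were counted as higher (0.222%) and 40 as lower (0.445%), Gas6 was 1.04 and 1.32 times the WT level and Axl 0.906 and 1.10 times. Within inflammatory fibroblast-like cells Gas6 was 0.613 times on day 3 and 1.54 times on day 5, and within cycling ones it was 0.440 and 0.529 times. Gas6 was thus lower in Ccr2-/- cells on both days in the cycling cluster, on day 3 alone in the inflammatory cluster and on neither day in the resting cluster. The WT cycling cells numbered only 46 and 22, and 1 cell held 29.0% and 33.5% of their Gas6 reads on days 3 and 5. Among the 33 inflammatory cells of WT day 5, 1 cell held 23.7%. The part of these single cells in the ratios was not tested.

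In Mo-Mac-like cells, 160 of 8872 genes were counted as higher in Ccr2-/- cells (1.8%) and 217 as lower (2.45%). Of the 7 genes 5 reached the minimum and none was counted. Stab1 was 2.22 times the WT level on day 3 and 0.990 times on day 5. Pros1 was 2.22 and 1.30 times, so these genes passed 2-fold on day 3 alone. Gas6 (1.81 and 1.10 times), Mertk (1.43 and 0.572 times) and Mfge8 (0.685 and 1.61 times) passed it on neither day. Within resident macrophage-like cells, where 253 of 8917 genes were counted as higher (2.84%) and 282 as lower (3.16%), the ratios of Gas6 and Stab1 on day 3 were 0.986 and 1.01. On day 5 they were 1.30 and 1.04. There were 61 and 41 such cells in the Ccr2-/- pools beside 63 and 200 in the WT pools, and they lay in different clusters. On day 3 the clusters led by Rnase6, Cd209b and Cyp26b1 held 2, 27 and 32 of the Ccr2-/- cells and 18, 42 and 3 of the WT cells. On day 5 they held 6, 20 and 15 of the Ccr2-/- cells and 140, 59 and 1 of the WT cells. The part of these clusters in the genotype ratios was not tested.

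From day 3 to day 5 in WT skin, Mertk and Gas6 were higher in Mo-Mac-like cells. With 1 pool a day, a gene was counted at 2-fold and 10 CPM in 1 of the pools, which 396 of 9247 genes met as higher (4.28%) and 345 as lower (3.73%). Mertk was 4.23 times the day 3 level (95% interval 3.69 to 4.88 for counting error of reads only) and Gas6 2.11 times. Mfge8, at 19.9 and 39.8 CPM, lay at the threshold, and its fold was 1.96 with a hashtag ratio of 10, 1.93 with a mitochondrial limit of 10% and 1.33 with each cell weighted the same. Stab1 was 1.81 times and Pros1 1.33 times. Within resident macrophage-like cells, where 661 of 9469 genes were counted as higher (6.98%) and 764 as lower (8.07%), Mertk alone of the 5 genes that met the minimum was counted, at 2.03 times. The Rnase6-led cluster, with 45.0 CPM of Mertk beside 38.3 and 18.6 CPM in the other resident clusters, made up 18 of 63 of these cells on day 3 and 140 of 200 on day 5, and its part in the Mertk value was not tested. Gas6 was 0.931 times, Stab1 0.750 times, Pros1 0.687 times and Mfge8 0.980 times. The higher Gas6 level of WT day 5 Mo-Mac-like cells was thus not seen in the resident subset as a whole. Its share of the class was 18.1% on day 3 and 50.3% on day 5. However, its mix of clusters differed between the days. Over all pools the Rnase6-led cluster had 471 CPM of Gas6, 282 of Stab1 and 83.5 of Pros1. The Cd209b-led cluster had 753, 651 and 239 CPM and the Cyp26b1-led cluster 505, 352 and 182 CPM. The part of this mix in the ratios was not tested, and a change within a cluster could be hidden by it. Of 349 and 398 Mo-Mac-like cells, the Cd209b-led cluster held 42 and 59 and the Cyp26b1-led cluster 3 and 1. The larger resident share thus lay in the Rnase6-led cluster, which had little Lyve1 and read Ccr2. In 2 other subsets Gas6 was higher on day 5, at 91.1 and 281 CPM in monocyte-like cells (65 and 12 cells) and at 135 and 323 CPM in monocyte-derived DC-like cells (48 and 75 cells). Fibroblast-like Gas6 was lower on day 5, at 0.649 times the day 3 level.

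A list of 47 further genes of apoptotic-cell recognition and uptake was read beside them. The highest levels of the roles were found in different classes. Each level is the mean over the pools with at least 20 cells of the class. WT day 5 was thus left out for neutrophil-like and basophil-like cells, with 6 and 2 cells. Among other receptors it was Cd36 in blood endothelial-like cells (a mean of 1213 CPM over pools), and among other bridging molecules it was the galectin Lgals3 in Mo-Mac-like cells (2389 CPM). Rac1, a GTPase that drives engulfment, was highest in mast cell-like cells (681 CPM, from the Ccr2-/- pools alone, since each WT pool held 10 such cells). Further highest levels of a role were those of the protease Furin in basophil-like cells (832 CPM), the sheddase Adam17 (347 CPM) and the feedback inhibitor Socs3 (1259 CPM) in neutrophil-like cells, the don't-eat-me signal Cd47 in basophil-like cells (734 CPM) and the eat-me signal Calr in fibroblast-like cells (1118 CPM). Gas6 and Pros1 need gamma-carboxylation to bind phosphatidylserine. Vkorc1, which recycles vitamin K for this step and was picked after its values were seen, was highest in fibroblast-like cells, at 252 CPM beside 74.6 CPM in Mo-Mac-like cells.

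Few genes of this list passed the rule of size. In fibroblast-like cells 29 of the 47 reached the minimum, none was counted as higher in Ccr2-/- cells and 1 as lower, the integrin subunit Itgb3 (32.5 to 15.3 CPM on day 3 and 48.3 to 22.5 CPM on day 5), beside 1.39% of all genes. In resting fibroblast-like cells none of 29 was counted. In Mo-Mac-like cells none of 34 was counted as higher and 3 were lower, which were the integrin subunit Itgb5, the bridging molecule Thbs1 and the fractalkine receptor Cx3cr1, beside 2.45% of all genes. In resident macrophage-like cells 1 of 32, Itgb5, was lower, beside 3.16% of all genes. The median log2 ratio of the list in Mo-Mac-like cells was -0.23 on day 3 and -0.06 on day 5, beside -0.01 and 0.01 for all genes tested. From day 3 to day 5 in WT Mo-Mac-like cells 3 of 36 were higher, which were the lipid and apoptotic-cell receptor Trem2 (110.4 to 293 CPM), Cd300lf and Cx3cr1, and 2 were lower, the phosphatidylserine receptor Havcr2 and Itgb3, beside 4.28% and 3.73% of all genes. The median log2 ratio was 0.05 beside -0.02 for all genes. In WT resident macrophage-like cells 3 of 37 were higher (Trem2, Itgb3 and Itgb5) and 5 were lower (Timd4, Havcr2, Gulp1, Twist1 and Panx1), beside 6.98% and 8.07% of all genes.

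Across 46 profiles of a class in a pool with at least 20 cells, from 14 classes, the genes whose levels ran most like those of each gene were listed among 10340 genes. The profiles share a library and many of them share a cell type, so the correlations of log2(CPM + 1) are given as a description. Axl was most like Mrgprf (r = 0.887), Col5a2 and Col6a2, the last 2 of them collagen genes. Gas6 was most like Rnase4 (r = 0.819), Neo1 and Cd109, and Pros1 most like Trim47 (r = 0.884), Zcchc24 and Crtap. Mfge8 was most like Lix1l (r = 0.872), Mxra8 and Cbx6. Stab1 was most like Chp2 (r = 0.813), Ednrb and Afap1l1, and Mertk most like Fcgrt (r = 0.717), Tcf4 and Lgmn. Tyro3 was most like Mif-ps (r = 0.742), Saa1 and Mif. Neither Mertk nor Tyro3 reached 50 CPM in any of these profiles, which the other genes had to reach. Among the 7 genes themselves, Pros1 and Mfge8 ran most alike (r = 0.784), followed by Gas6 and Pros1 (r = 0.649), and Axl and Stab1 least (r = -0.271).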

How the data were processed

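Cells were sequenced by TAS-Seq on BD Rhapsody. The deposited values of both files used are counts, reads per gene or hashtag and barcode, made by the authors from reads treated with Cutadapt and Bowtie2 against GRCm38.p6 (submitters' processing notes). They are reads and not molecules, so intervals cover only the counting error of reads taken as independent. This holds for the intervals in the figures as well. Reads of a gene in a cell need not be independent, so these intervals can be too narrow. Spread between cells or pools is not covered by them. The methods describe a correction for background reads, yet 92.3% of kept cells had a Col1a1 read in the deposited values. The file of hashtags had 9 further columns, which were not used.

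A barcode was assigned where its highest hashtag was at least 3 times the next, with at least 10 hashtag reads, at most 20% mitochondrial reads and at least 200 genes. Barcodes with several hashtags (570) were left out, and doublets within a pool were not called. CPM were log-transformed (pseudocount 1), and 2000 variable genes, without Ccr2 and the genes and pathway list described here, gave 30 components, 20 neighbours and Leiden clusters at resolution 1 (scanpy 1.11.5). Of 23 clusters, 3 stayed unnamed (828 cells). The name limits and the use of fibroblast clusters as subsets were chosen after the clusters were seen. Levels are CPM of summed reads with exact Poisson 95% intervals, and shares of cells were taken at 10000 reads per cell. With 1 pool per genotype and day no test was made, and a model with day and genotype over the 4 pools was not fitted.

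The 7 genes, the lists and the alternatives were chosen with earlier results of these data known. All 7 genes are named. Of the pathway list, genes past the rule of size and the gene with the highest CPM of each role are named (1 role is not reported here), with the 3 likest genes of each of the 7 by Pearson correlation among genes with at least 50 CPM in 1 profile. The rule of size was run on simulated Poisson reads with changes larger than its 2-fold limit. That run does not cover changes near the limit, or spread between cells or pools. Promoter sequences are RefSeq's (GRCm38.p6, 250 bases, 7 of 7 genes matched), and gene positions are from GENCODE M21.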

Additional observations from a re-analysis of the deposited data

Results flagged for a closer look

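Mfge8 in resident macrophage-like cells moved in opposite directions between genotypes on the 2 days. It was 0.424 times the WT level in Ccr2-/- cells on day 3 and 2.06 times on day 5, and the difference between the days was not tested. The level in the Ccr2-/- day 5 pool was 71.2 CPM from 41 cells, and 1 cell held 82.9% of those reads.

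The genes were also read in clusters that stayed unnamed, which entered no comparison. These values are listed because they lay more than 3 times above the NK cell-like level. The median depth was 12685.5 reads in the Gm23935-led cluster and 5928.5 in the Malat1-led one, beside 21613.5 in NK cell-like cells. Whether these clusters hold a cell type of their own was not tested. In the cluster led by Gm23935 (160 cells) Gas6 was at 389 CPM, Axl at 142, Mfge8 at 117, Pros1 at 98.7, Stab1 at 43.6 and Mertk at 7.82 CPM. In the cluster led by Malat1 (390 cells) Gas6 was at 317 CPM, Pros1 at 209.9, Axl at 160.2, Mfge8 at 123, Stab1 at 77.9 and Mertk at 15.9 CPM.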

How the results depend on the processing

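The mean share of reads over the 4 pools was 68.1% for Gas6, 77.5% for Pros1, 64.0% for Mfge8 and 86.1% for Axl in fibroblast-like cells, and 37.4% for Mertk and 72.1% for Stab1 in Mo-Mac-like cells. With a hashtag ratio of 10 the shares were 67.0% for Gas6 and 75.7% for Pros1, and at resolution 0.5 the share was 73.6% for Stab1. With each cell gated by its own markers they were 57.0% for Gas6, 60.96% for Pros1, 49.5% for Mfge8, 66.7% for Axl and 65.8% for Stab1. Without cells of over 200000 reads they were 60.5%, 68.1%, 55.2%, 82.2% and 74.8% in that order, and with each cell weighted the same 48.8%, 53.7%, 43.7%, 70.9% and 57.7%, with 29.2% for Mertk. The genotype differences counted 178 genes in fibroblast-like and 377 in Mo-Mac-like cells, and the WT day difference 741. With a minimum of 50 CPM these were 45, 114 and 264, and with 1 read as the minimum 1420, 1499 and 5197. Resting, inflammatory and cycling fibroblast-like cells alone gave 60, 72 and 99, and resident macrophage-like cells alone gave 1425 for the day difference (all 4 chosen after the data were seen). Weighting cells the same gave 112 higher and 127 lower genes in fibroblast-like cells, beside 50 and 128. In Mo-Mac-like cells the counts were 177 and 172 without the deep cells and 197 and 201 with a hashtag ratio of 10, beside 160 and 217. With Dcn and Tyrobp as tracers, the smallest ratio of Gas6 in Mo-Mac-like cells to carry-over was 11.6, beside 10.7. The day folds of WT Mo-Mac-like cells ranged from 3.36 to 4.45 for Mertk, 2.03 to 2.40 for Gas6 and 1.33 to 2.18 for Mfge8, which fell under 2 with a hashtag ratio of 10, with a mitochondrial limit of 10% and with cells weighted the same. Of 210 alternative values of levels of at least 10 CPM, 15 moved by over 1.5 times (0.419 to 5.86 times). Gas6 in lymphatic endothelial-like and DC-like cells was among them with each cell gated by its own markers. The same gating gave the smallest and the largest ratio, which were those of Mertk (0.419) and Axl (5.86) in DC-like cells. The cause of these shifts was not tested. No paired analysis was possible because the labels give the pools no replicate numbers and the comparisons rest on no test. Genotypes were compared within each day, and a model with day as a term was not fitted. With 1 pool per genotype and day no replicate could be left out. Depth limits Tyro3 and Mertk most, and the number of mice behind a pool is unknown.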
